A study of Arabidopsis thaliana with 6 samples.

Results

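The 7 genes described here encode proteins that Arabidopsis thaliana sperm cells use to meet and fuse with the female gametes, or that sit in membranes of the sperm cell or its nucleus. They are GCS1 (AT4G11720, also named HAP2), GEX1 (AT5G55490), GEX2 (AT5G49150), DMP8 (AT1G09157), DMP9 (AT5G39650), TET11 (AT1G18520) and TET12 (AT5G23030). They were picked by identifier from tables of 33323 genes, and 6 of the 7 had enough reads to be tested.

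RNA came from pieces of style, the upper stalk of the pistil, through which pollen tubes had grown, so each library mixed female style cells, the vegetative cell that forms the tube, and the sperm cells carried inside it. The groups were 3 libraries of wild-type plants of accession Col-0 and 3 of paps1-1, which the labels place in Col-0. The mutant allele affects PAPS1, a nuclear poly(A) polymerase that tails new transcripts. No age, temperature or treatment was given, nor whether pollen, pistil or both were mutant. In such bulk RNA, more sperm cells and more RNA per sperm cell cannot be told apart.

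A pollen tube delivers a pair of sperm cells, one for the egg cell and one for the central cell. GEX2 helps the sperm attach to the female gametes, GCS1 is the fusogen that merges the membranes, and DMP8 and DMP9 are needed for efficient fusion and for moving GCS1 to the sperm surface. TET11 and TET12 are tetraspanins, small proteins that cross the membrane several times, found where the sperm cells of a pair touch each other. GEX1 is a nuclear membrane protein needed for nuclei to fuse. DUO1, a MYB transcription factor, switches on much of the sperm programme, and the annotation names DMP9 as a DUO1-activated gene.

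Reads counted in genes numbered 13707799 to 21031017 in the wild-type libraries and 4541233 to 18717968 in paps1-1. Replicate 2 of paps1-1 was the shallowest library, and 74.6% of its reads mapped to several places (exact 95% Clopper-Pearson interval 74.57 to 74.60). That share was also raised in paps1-1 replicate 1, at 28.0%. It was 7.75% in paps1-1 replicate 3 and 7.28%, 11.9% and 15.1% in wild type. Levels are given as CPM, counts per 1000000 reads after scaling library sizes by TMM factors. A count of 3 reads, taken as the floor, was worth 0.151 to 0.638 CPM in single libraries, which covers counting error only. The 16 vegetative pollen tube genes on a fixed list all had reads, with summed levels of 51668 to 123174 CPM in wild type and 58364 to 76936 CPM in paps1-1. Of 8 style and transmitting tract genes, HEC1, HEC2 and CRC had no read in any library, and the list summed to 20.3 to 29.4 CPM in wild type and 27.8 to 33.5 CPM in paps1-1. The 8 egg cell and synergid genes together stayed between 0.757 and 1.22 CPM, and none had enough reads to be tested. Transcripts of those female cells were thus near the floor throughout.

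GEX2, the attachment protein gene, was close to unmeasured. The wild-type libraries held 1, 0 and 2 of its reads, and the paps1-1 libraries none. Both genotypes were at or under the floor, so no fold change is given. In the TAIR10.1 annotation 96.7% of the exon bases of GEX2 lie within exons of AT5G49152, a long non-coding RNA gene on the same strand, and the tables leave out reads that cannot be given to 1 gene. The near-empty count therefore does not show that GEX2 transcripts were absent. AT5G49152 itself stood at 4.49, 4.39 and 6.31 CPM in wild type and at 3.50, 3.19 and 2.58 CPM in paps1-1. All 3 mutant values of that RNA lay below the wild-type values, as in 1432 of all 18317 genes tested. The log2 fold change was -0.72 (SE 0.30) and missed edgeR's threshold (adjusted p = 0.375). How many of its reads came from GEX2 was not tested. Among the other 6 genes, TET12 shares 18.0% of its exon bases with AT5G23035 on the opposite strand, and since the libraries do not mark strand its counts may be too low. The other 5 overlap no gene in the tables.

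**Figure D1:**
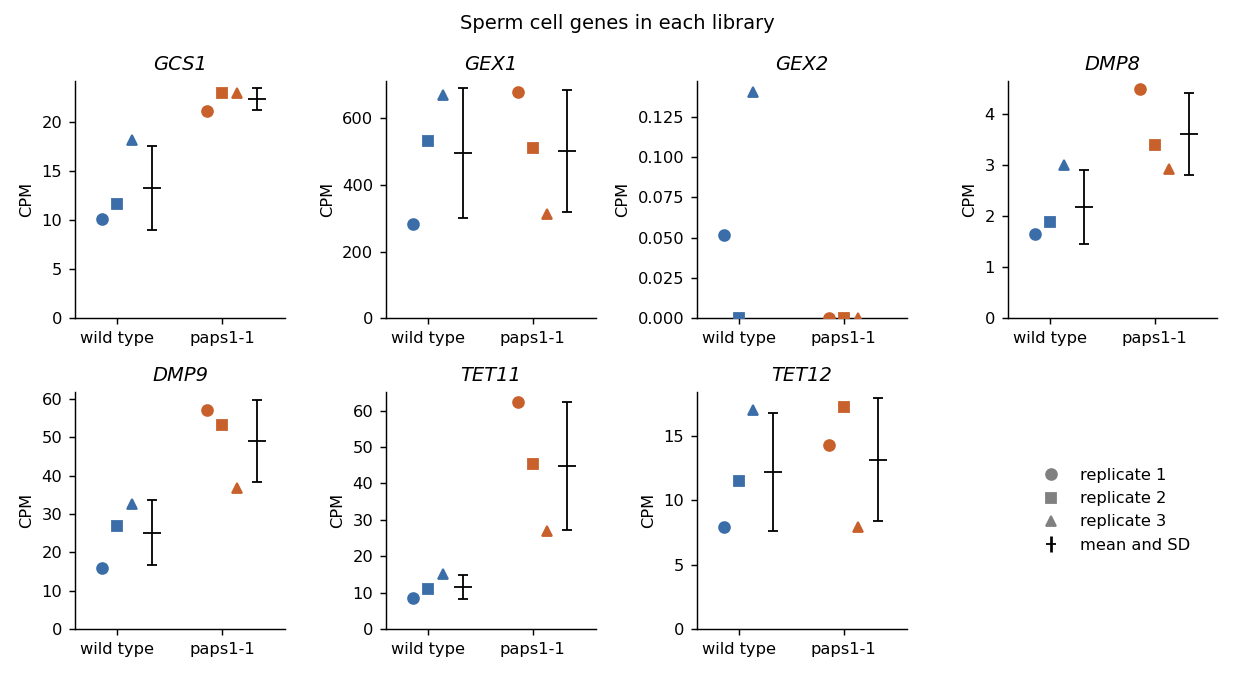
CPM of each gene in the 3 wild-type and 3 paps1-1 libraries, 1 panel per gene with its own linear axis from 0. Symbols mark replicates, which are not paired between genotypes, and black bars give the mean and SD (left out for GEX2). TET11, DMP9 and GCS1 have all 3 paps1-1 values above all 3 wild-type values, while GEX1 and TET12 overlap.

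Setting mutant against wild-type complexes asks which of these sperm transcripts differ when the polymerase is altered. TET11 rose 3.91-fold in paps1-1 and was the one gene of this group that passed the test across all genes. DMP9, GCS1 and DMP8 had smaller differences in the same direction that did not pass, and GEX1 and TET12 showed little difference. Genotypes were compared with edgeR's quasi-likelihood test on 18317 genes, with Benjamini-Hochberg adjustment over all of them and a threshold of 0.05. At that threshold 2.34% of all tested genes were called, 1.16% as higher in paps1-1. The group had 1 called gene of 6 tested.

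Among the fusion genes, GCS1 reached 10.1, 11.6 and 18.1 CPM in wild type, against 21.0, 23.0 and 22.9 CPM in paps1-1. Every mutant library was above every wild-type library, and the mutant values lay much closer together than the wild-type ones. The means were 13.3 ± 4.24 and 22.3 ± 1.097 CPM (SD, n = 3), a log2 fold change of 0.75 (SE 0.26, 95% interval 0.19 to 1.31). It did not pass edgeR's quasi-likelihood test over all genes (adjusted p = 0.216). Without wild-type replicate 3, the highest of the wild-type values, the log2 fold change was 1.01 and it passed (adjusted p = 0.0407, range over all alternatives 0.0407 to 1.00).

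DMP9 was the more abundant of the pair of DMP genes of sperm. It stood at 15.9, 26.8 and 32.7 CPM in wild type and at 57.1, 53.1 and 36.8 CPM in paps1-1. The groups did not overlap, although paps1-1 replicate 3 was close to wild-type replicate 3. The means were 25.1 ± 8.49 and 49.0 ± 10.7 CPM (SD, n = 3), with a log2 fold change of 0.96 (SE 0.29, 95% interval 0.35 to 1.58) that did not pass edgeR's test (adjusted p = 0.122). With no filter on low counts it passed (edgeR adjusted p = 0.0189, range over all alternatives 0.0189 to 1.00). Its partner DMP8 had few reads, 16 to 76 per library. DMP8 stood at 1.65, 1.89 and 3.01 CPM in wild type and at 4.50, 3.40 and 2.93 CPM in paps1-1. Here the groups overlapped, since the lowest mutant value was just under the highest wild-type value. The log2 fold change was 0.74 (SE 0.35, 95% interval 0.01 to 1.48) and did not pass edgeR's test (adjusted p = 0.480).

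The tetraspanin genes differed from each other. TET11 stood at 8.56, 10.9 and 15.0 CPM in wild type and at 62.3, 45.3 and 27.0 CPM in paps1-1. The lowest mutant library was still well above the highest wild-type library, but the mutant libraries spread over a wide range. TET11 rose from 11.5 ± 3.26 to 44.8 ± 17.7 CPM (SD, n = 3), a log2 fold change of 1.97 (SE 0.32, 95% interval 1.29 to 2.64, edgeR adjusted p = 0.00184). By p-value it ranked 165 among the tested genes. It passed with each library left out in turn, with log2 fold changes of 1.64 to 2.23 (adjusted p 3.36e-04 to 0.0229), and without both wild-type replicate 3 and paps1-1 replicate 2 (2.17, adjusted p = 0.0313).

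TET12, the other tetraspanin gene of sperm, stood at 7.94, 11.5 and 17.0 CPM in wild type and at 14.3, 17.2 and 7.88 CPM in paps1-1. The groups overlapped over nearly their whole range. Its log2 fold change was 0.09 (SE 0.33), with a 95% interval of -0.62 to 0.79 that leaves room for changes of up to 1.73-fold upward. In wild type the pair had nearly equal counts, with 1.08, 0.947 and 0.881 TET11 reads per TET12 read. In paps1-1 the ratios were 4.36, 2.63 and 3.42, all above the wild-type values. The exact permutation test of this ratio on a log scale gave p = 0.1, the smallest that 3 against 3 libraries allow (two-sided, adjusted p = 0.2 over 6 ratios compared).

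GEX1, the nuclear fusion gene, was by far the most abundant of the group. It stood at 284, 532 and 670 CPM in wild type and at 679, 512 and 314 CPM in paps1-1. High and low libraries were found in both genotypes, and the means were nearly the same, 495 ± 196 and 502 ± 183 CPM (SD, n = 3). The log2 fold change was 0.02 (SE 0.37), with a 95% interval of -0.77 to 0.81. In folds that interval runs from 0.586 to 1.75. It is not adjusted over all genes, so larger changes in GEX1 could also have missed the threshold.

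**Figure D2:**
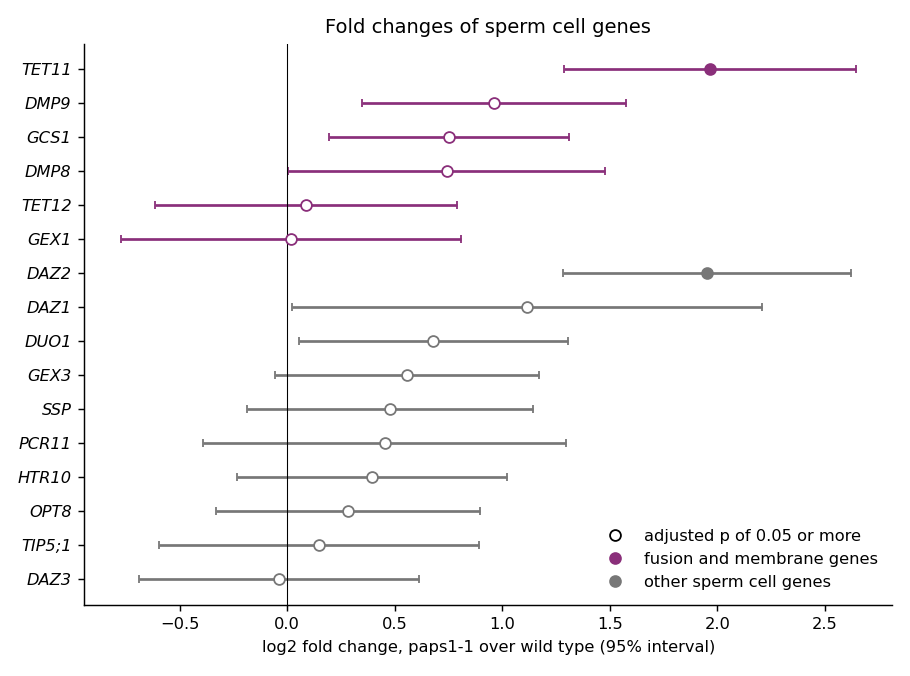
Log2 fold change of paps1-1 over wild type with its 95% interval from edgeR, for the 6 tested fusion and membrane genes (purple) and 10 other sperm cell genes (grey). Filled points have an adjusted p under 0.05, which holds for TET11 (1.97) and DAZ2 (1.95), and the values of GEX1, TET12 and DAZ3 lie within 0.09 of 0.

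Taken over the tested genes of the group, all 6 log2 fold changes were positive with TMM scaling, but those of GEX1 and TET12 turned negative (-0.23 and -0.16) when libraries were scaled to the summed reads of 10 other sperm cell genes. With TMM scaling kept, both were also negative without wild-type replicate 1 (-0.26 for GEX1 and -0.15 for TET12), without paps1-1 replicate 1 (-0.26 and -0.0012) and without paps1-1 replicate 2 (-0.01 and -0.15). The median of the 6 was 0.75, against 0.03 over all genes tested. Over all 18317 genes tested, 9796 values were positive and 8521 negative. By edgeR 4 of the 6 had an unadjusted p under 0.05, as had 1883 of all genes tested. In 3 of the 6 the mutant values all lay above the wild-type values, as in 6.92% of all tested genes. Within wild type all 6 rose from replicate 1 to 3, as did the share of multi-mapping reads (7.28%, 11.9% and 15.1%). Replicate 3 of paps1-1 had the lowest mutant share (7.75%) and the lowest mutant values of all but GCS1. Replicate 2 had the highest share (74.6%) but not the highest GEX1, DMP8, DMP9 or TET11. Whether levels follow that share was not tested. In simulated data of this design 32% of 2-fold changes and 99% of 4-fold changes were recovered. Counts were drawn there for each gene on its own, with the spread typical of its level. Spread particular to a gene, or shared by sperm genes within a library, was left out, so recovery of these genes may differ. The differences of GCS1, DMP8 and DMP9 are under 2-fold. Recovery at read counts as low as those of DMP8 was not examined separately, so these rates are not applied to DMP8. The vegetative pollen tube list leaned the other way. The values were negative for 15 of its 16 genes and had a median of -0.34, though none passed by edgeR, DESeq2 or limma-voom and 2 had an unadjusted p under 0.05. Without wild-type replicate 2 edgeR called 1 of them, MYB97, as lower, and without wild-type replicate 3 the list's median was -0.0037. In wild type VGD1 alone had a mean of 37984 CPM, within a mean of 86554.5 CPM for the whole vegetative list. Scaling libraries to the summed reads of that list moved the median of all genes to 0.26. The log2 fold change of TET11 was then 2.31 and passed (adjusted p = 2.53e-04), and those of DMP9, DMP8, GCS1, TET12 and GEX1 were 1.25, 1.09, 1.07, 0.45 and 0.33 and did not. Scaled to the other sperm cell genes, which moved the median of all genes to -0.25, TET11 kept a log2 fold change of 1.64 but missed the threshold (adjusted p = 0.143, range over all alternatives 7.00e-10 to 0.143).

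Read ratios within a library do not depend on scaling. Wild-type libraries had 0.847, 0.942 and 0.829 TET11 reads per GCS1 read, and mutant libraries had 2.96, 1.97 and 1.18. Per GEX1 read, TET11 had 0.0302, 0.0205 and 0.0224 reads in wild type, against 0.0917, 0.0884 and 0.0859 in the mutant. Both sets were apart between genotypes, each with an exact permutation p of 0.1, the smallest possible (two-sided, adjusted p = 0.2). DMP9 and DMP8 kept more similar proportions. DMP9 reads per DMP8 read came to 9.66, 14.2 and 10.8 in wild type, against 12.7, 15.6 and 12.6 in the mutant, which overlap (exact permutation p = 0.3, adjusted p = 0.36). The ratio of GCS1 to GEX1 overlapped too, at 0.0356, 0.0218 and 0.0270 for wild type against 0.0310, 0.0448 and 0.0730 for the mutant (exact permutation p = 0.2, adjusted p = 0.3). So did DMP9 against GCS1, with means of 1.90 ± 0.378 and 2.21 ± 0.561 (SD, n = 3; exact permutation p = 0.5). Of the reads of all 7 genes, GEX1 took 88.2 ± 1.53% in wild type and 78.5 ± 2.36% in paps1-1, and TET11 took 2.14 ± 0.413% and 6.97 ± 0.440% (SD, n = 3).

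**Figure D3:**
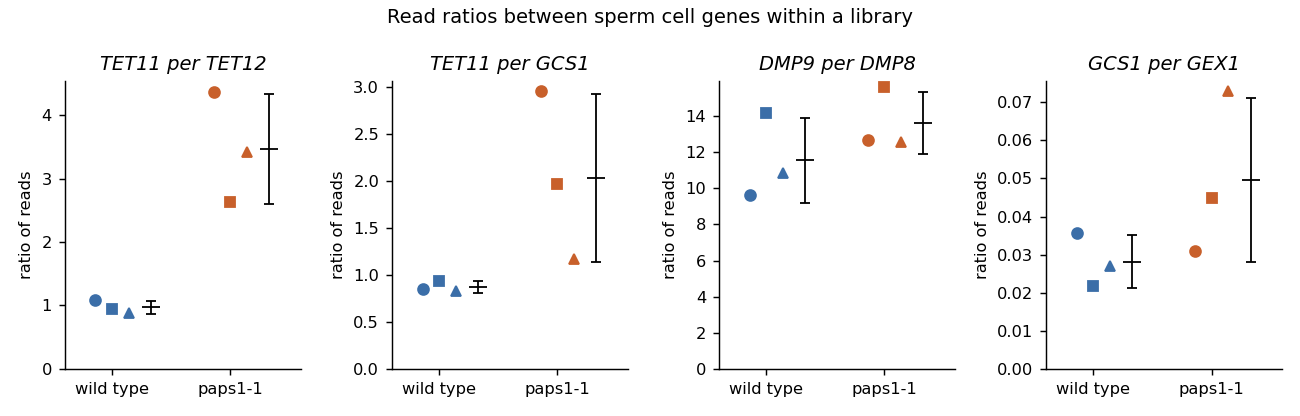
Reads of one sperm cell gene per read of another in each library, on linear axes from 0, with the mean and SD over 3 libraries per genotype in black and symbols for replicates. TET11 per TET12 is near 1 in all wild-type libraries and 2.63 or more in all paps1-1 libraries, and DMP9 per DMP8 and GCS1 per GEX1 overlap.

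To set genes against each other, CPM was divided by coding length in the TAIR10.1 annotation, which runs from 0.732 kb for DMP8 to 2.118 kb for GCS1. In wild type the order was GEX1 (270 ± 107 CPM per kb, SD, n = 3), DMP9 (34.2 ± 11.6), TET12 (15.3 ± 5.76), TET11 (14.1 ± 3.99), GCS1 (6.26 ± 2.00) and DMP8 (2.98 ± 0.995). TET12 was below TET11 in wild-type replicate 1 (9.99 against 10.5). It was above TET11 in replicates 2 and 3 (14.5 against 13.4 and 21.4 against 18.4). The means of TET12 and TET11 changed places when exon length was used. Of the tested genes with a coding length, 97.0% had a lower wild-type level per kb than GEX1, 82.5% a lower one than DMP9 and 48.5% a lower one than the fusogen gene GCS1. In paps1-1 the order was GEX1 (274 ± 99.8), DMP9 (66.7 ± 14.6), TET11 (55.0 ± 21.7), TET12 (16.5 ± 6.01), GCS1 (10.5 ± 0.518) and DMP8 (4.93 ± 1.105). There TET11 stood next to DMP9, from which it did not differ beyond the spread, and apart from TET12.

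The rest of both families was measured beside them. DMP genes encode small membrane proteins of a plant-specific family, and of 8 other DMP genes 4 were tested and none passed by edgeR, DESeq2 or limma-voom or had an unadjusted p under 0.05. DMP7 was the most abundant DMP gene, at 158 CPM per kb in wild type and 135 CPM per kb in paps1-1 (log2 fold change -0.22, SE 0.26), and DMP3 and DMP10 had no read. Of 15 other TET genes 12 were tested, and by edgeR, DESeq2 and limma-voom none passed. The unadjusted edgeR p was under 0.05 for 1883 of all 18317 genes tested, and for 3 of these 12. Those were TET2, TET14 and TET17, with log2 fold changes of -1.25 (SE 0.54), -1.19 (SE 0.43) and -0.79 (SE 0.28). The median over the 12 was -0.16, with 5 positive and 7 negative values. TET8, the most abundant tetraspanin gene at 187 CPM per kb in wild type, had a log2 fold change of 0.26 (SE 0.25), and TET13 one of 0.48 (SE 0.27). TET11 was the called member of the family, and TET4 was also called, as lower, without paps1-1 replicate 2.

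**Figure D4:**
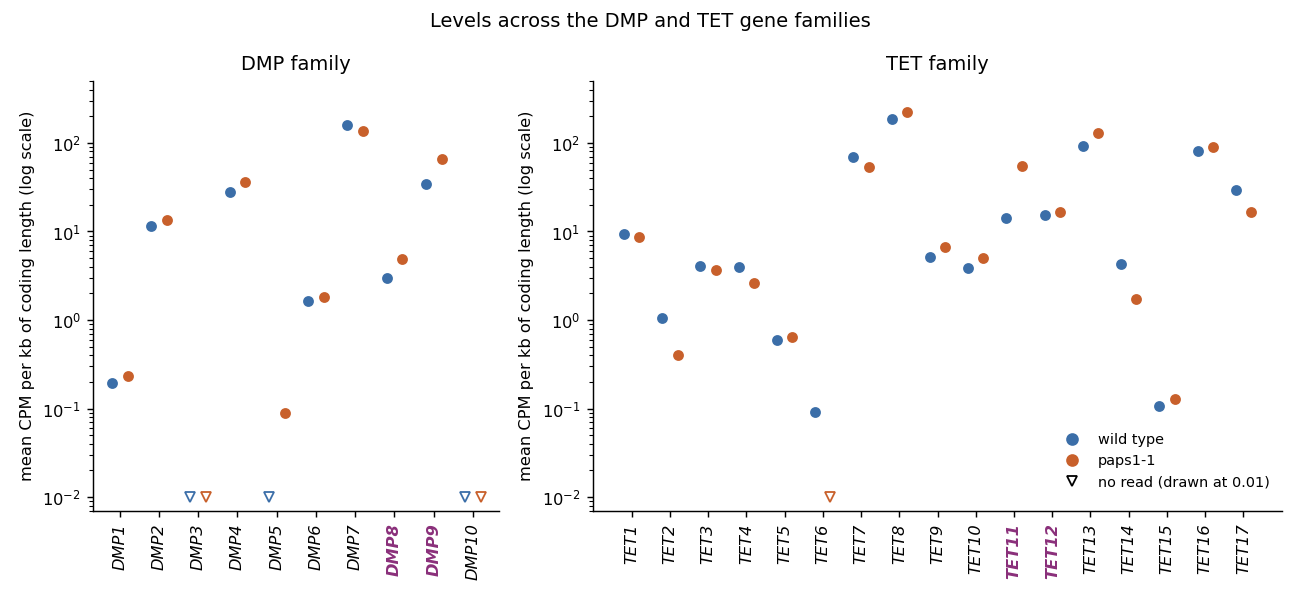
Mean level per kb of coding length in wild type (blue) and paps1-1 (orange) for the 10 DMP and 17 TET genes, on a log axis, with open triangles for genes with no read and the sperm cell genes in bold purple. TET11 moves from 14.1 to 55.0 CPM per kb while TET12 stays at 15.3 and 16.5 CPM per kb.

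Other sperm cell genes were compared as a list of 10, all tested. DAZ2, which encodes a zinc-finger protein of the germline, was the called member, with a log2 fold change of 1.95 (SE 0.31). It lost that call when libraries were scaled to the list itself. Under TMM 9 of the 10 values were positive, as were 9796 of the 18317 over all genes tested. By edgeR 3 of the 10 had an unadjusted p under 0.05, as had 1883 of all genes tested. The median of the 10 was 0.47 under TMM, and 0.24 with scaling to the list. It was 0.18 without wild-type replicate 1 and 0.70 without wild-type replicate 3. DUO1 had 0.68 (SE 0.29) and HTR10, a histone H3 of male gametes, 0.39 (SE 0.29). The summed level of these genes was 616, 1158 and 1263 CPM in wild type and 1541, 1295 and 790 CPM in paps1-1. Wild-type replicate 1 and paps1-1 replicate 3 were the lowest of their genotypes, as they were for GEX1 and TET12. Most of the summed level came from PCR11, DAZ3 and TIP5;1, at wild-type means of 314, 304 and 252 CPM in 1013 CPM. In paps1-1 replicate 3 the values of TET11, DMP9 and DMP8 were also the lowest of the mutant libraries, while that of GCS1 was not.

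The patterns over the 6 libraries were compared by the root mean square difference of log2(CPM + 0.5), each gene centred on its own mean. Such distances describe 6 libraries that differ in depth and in the summed levels of the sperm and vegetative lists, and with 18316 other genes some are close to any pattern. GEX1 and TET12 were near each other (0.227, with 1.05% of genes nearer to GEX1), as were GCS1 and DMP8 (0.213, with 0.388% nearer to GCS1). TET11 and TET12 were 0.914 apart, with 15.3% of genes nearer to TET11 and 96.7% nearer to TET12. The nearest gene of the group to TET11 was DMP9 (0.489, with 0.655% nearer). Of the other sperm genes, DAZ2 was nearest to TET11 (0.309) and TIP5;1, an aquaporin gene, to GEX1 (0.123). The 3 nearest genes of all were AT1G42697, AT1G19394 and AT5G18330 for TET11 (0.146 to 0.159), and AT1G22730, the actin-depolymerising factor gene ADF8 and AT5G37010 for GCS1 (0.0728 to 0.131). They were AT4G19510, AT4G19950 and AtIPCS3 for GEX1 (0.0800 to 0.0835), and AT5G41690, ZW18 and ULP1B for TET12 (0.0659 to 0.0973). For DMP9 they were SADHU4-1, AT1G25500 and AT3G45220 (0.0807 to 0.118), and for DMP8 TZP, UGT84A3 and the cell wall invertase gene cwINV4 (0.0712 to 0.0911).

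Where the genes lie was examined last, since called genes were unevenly spread over chromosomes. They made up 3.18% of tested genes on chromosome 1 and 4.37% on chromosome 3, against 1.29%, 1.19% and 1.08% on chromosomes 2, 4 and 5. TET11 and DMP8 are on chromosome 1, GCS1 on chromosome 4, and GEX1, GEX2, DMP9 and TET12 on chromosome 5. Among the 10 tested genes on either side of TET11, none was called higher by edgeR and 1 was called lower. That was its next tested neighbour AT1G18530, annotated as an EF-hand calcium-binding protein, which fell from 11.4 ± 2.32 to 4.14 ± 1.31 CPM (SD, n = 3; log2 fold change -1.52, SE 0.30, edgeR adjusted p = 0.0103). On the other side the neighbour was another tetraspanin gene, TET16, at 59.9 ± 5.88 and 68.0 ± 3.54 CPM (log2 fold change 0.18, SE 0.23). The 20 neighbours of TET11 had a median log2 fold change of 0.07 and a range of -1.52 to 1.06. Around DMP8, 2 of 20 neighbours were called lower, BIP3 (-3.03, SE 0.63) and SARA1A (-2.11, SE 0.35), named after their values were seen. BIP3 stood at 30.0 ± 29.5 CPM in wild type, a very uneven level, and at 3.48 ± 0.999 CPM in paps1-1 (SD, n = 3). SARA1A stood at 15.6 ± 6.48 and 3.52 ± 1.12 CPM. The median of the 20 was -0.33. Around GCS1, GEX1, GEX2, DMP9 and TET12 edgeR called none of the 20 neighbours of each. A change due to the position of TET11 or DMP8 on chromosome 1 and one due to paps1-1 cannot be told apart.

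**Figure D5:**
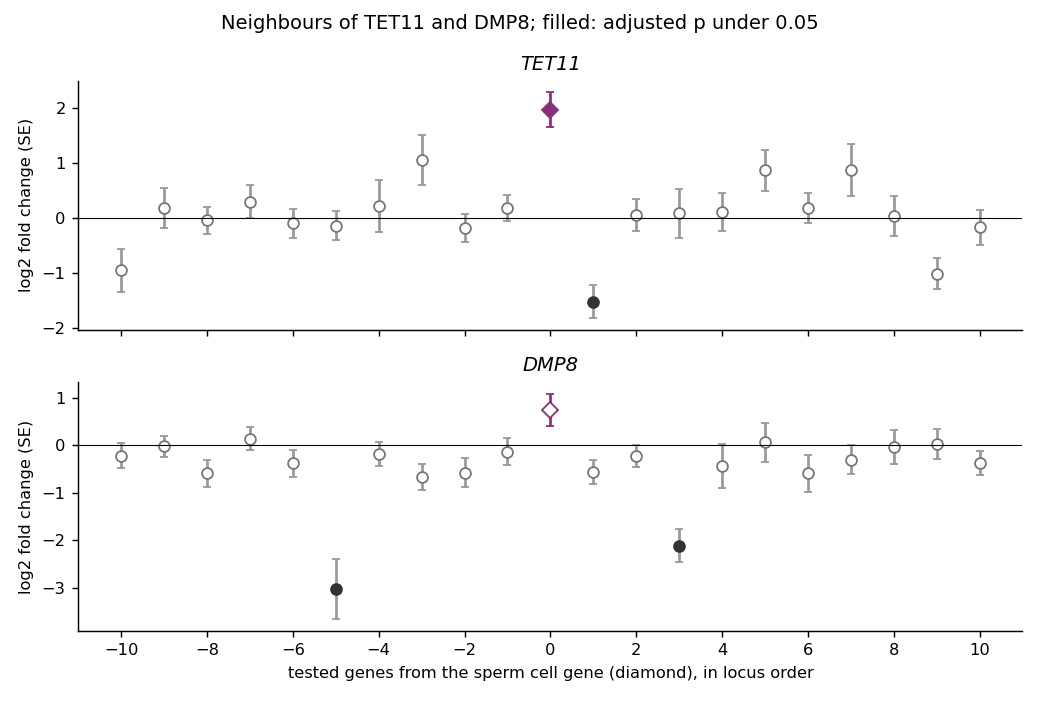
Log2 fold change of paps1-1 over wild type, with SE, for TET11 and DMP8 (diamonds) and the 10 tested genes on either side in locus order. Filled symbols have an adjusted p under 0.05, which beside TET11 holds for 1 lower neighbour (-1.52) and beside DMP8 for 2 lower neighbours (-3.03 and -2.11).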

How the data were processed

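The deposited values are raw counts per gene, 1 table per library, and the columns that ignore strand were used. STAR was used with TAIR10, per the submitters' processing notes. The aligner's version and settings and the annotation were not given in the sources used here. RNA was isolated with the PicoPure kit and sequenced on a HiSeq instrument, per the labels' protocols. Reads on either strand were in a ratio of 1.02 to 1.07, so strand was not marked. Reads assigned to no gene stayed out of library sizes. They were 2.71% to 9.93% of all reads outside genes, 7.28% to 74.6% multi-mapping and 0.228% to 1.65% ambiguous.

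Only wild-type titles speak of biological replicates. For paps1-1 nothing says that plants were separate, and p-values then measure a spread that may be technical. No libraries agreed within sampling noise (chi-square per degree of freedom at least 33.6). That lowest value was between genotypes, for wild-type replicate 2 and paps1-1 replicate 1. The lowest within paps1-1 was 56.4 (replicates 1 and 3), and within wild type 69.4 (replicates 1 and 2). The same numbers did not pair libraries across genotypes.

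Low genes were removed with filterByExpr (edgeR 4.0.16, minimum count 10). The rest were scaled by TMM and tested with glmQLFit and glmQLFTest (two-sided, R 4.3.3). SE is the log2 fold change divided by the root of F. The test was tried on simulated data of the 3 against 3 design, with 200 of 18018 genes changed and 8 false calls among 139. Alternatives were RLE and upper-quartile factors, scaling to the vegetative pollen tube list, no filter (at least 1 read), 5 CPM in 3 libraries, DESeq2 1.42.0, limma-voom (limma 3.58.1), counts of 1 strand, each library left out and a replicate block. Scaling to the other sperm list and leaving out 2 libraries together were chosen after seeing the data.

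Names, locus order, gene overlaps and lengths came from TAIR10.1, which matched 32835 of 33323 identifiers. Its coordinates are not printed, as the build named for the counts differs. The genes and lists were chosen with earlier results of these data known. By the fixed rule the text may name the 7 genes, members of the lists, called neighbours of a called gene, and the 3 genes most like each tested one. Outside it, AT5G49152 and AT5G23035 are named for their overlap with GEX2 and TET12, and 2 called neighbours of DMP8 after their values were seen.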

Additional observations from a re-analysis of the deposited data

How the results depend on the processing

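TET11 kept its direction under all 17 alternatives and its call under 16, the exception being scaling to the other sperm cell list. DMP8, DMP9 and GCS1 kept positive values under every alternative that fitted them (DMP8 could not be tested at 5 CPM in 3 libraries). Of the 7 genes, 2 were called with no low-count filter (TET11, and DMP9 at adjusted p = 0.0189 by edgeR's test), 0 with scaling to the other sperm cell list, and 1 to 2 with each library left out. The log2 fold changes of GEX1 and TET12, 0.02 and 0.09, became -0.23 and -0.16 with scaling to the other sperm cell list. With each library left out they ranged from -0.26 to 0.27 and from -0.15 to 0.37. The cause of these changes was not tested. Over all genes the number called was 429, and 1042 with no filter, 216 at 5 CPM in 3 libraries, 237 without wild-type replicate 3 and paps1-1 replicate 2, 261 with scaling to the other sperm cell list and 620 by DESeq2. It was 333 to 456 with each library left out. The replicate block gave 482 calls over all genes and 1 of the 7. Same-numbered libraries deviated together with correlations of -0.256, 0.126 and -0.151 for numbers 1 to 3, and not every library correlated best with its own number. Of the 6 tested genes DMP8 had the fewest reads, down to 16 in paps1-1 replicate 2.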
